A study of Mus musculus with 25 samples.

Results

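Liver expression of 10 genes that make, conjugate, move and sense bile acids was described in mice labelled Ncoa5+/- and in wild type mice, with and without metformin. The genes were chosen by name: Cyp7a1, Cyp8b1, Cyp27a1 and Cyp7b1 for synthesis, Slc27a5 and Baat for conjugation, Slc10a1 and Abcb11 for transport, and Nr1h4 and Nr0b2 for sensing. They were found at 11 of 46499 loci in the 20-week cohort and at 10 of 46052 loci in the 39-week cohort. Baat stands at 2 loci of the same position at 20 weeks, and the lower one averaged 3.27 FPKM over the 8 mice. Every one of these loci had a cohort mean of at least 1 FPKM (fragments per kilobase of transcript, scaled to library size) and was tested.

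Total liver RNA of C57BL/6 mice on a standard diet was sequenced in 25 animals. The 20-week cohort held 4 mice labelled Ncoa5+/- and 4 wild type mice, none of them given metformin. The 39-week cohort held 5 Ncoa5+/- mice given metformin, 5 untreated Ncoa5+/- mice, 3 wild type mice given metformin and 4 untreated wild type mice. Metformin, a drug used against type 2 diabetes, was given in drinking water at about 250 mg per kg per day for 31 weeks, starting at 8 weeks of age. Ncoa5 encodes a coactivator of nuclear receptors, and the label Ncoa5+/- names mice with 1 disrupted copy. Each cohort had its own sequencing facility and instrument, so age cannot be told apart from these and no test was made between the cohorts. The gene Ncoa5 itself averaged 3.55 ± 0.352 FPKM in treated Ncoa5+/- mice, 3.72 ± 0.714 in untreated Ncoa5+/- mice, 4.63 ± 1.74 in treated wild type mice and 4.17 ± 0.445 in untreated wild type mice (SD). Its level did not separate the genotype labels, with a log2 difference averaged over treatment of -0.20 ± 0.11 and an adjusted p of 0.872 by limma, and of -0.084 without treated wild type replicate 3. At 20 weeks it averaged 3.85 ± 0.884 FPKM in Ncoa5+/- mice and 4.01 ± 0.944 in wild type mice (adjusted p = 0.926).

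Bile acids are made from cholesterol in hepatocytes. The classic route starts with the cholesterol hydroxylase Cyp7a1, its rate-limiting step, and Cyp8b1 then sets how much of the product is cholic acid, while Cyp27a1 and Cyp7b1 act in the alternative route. Slc27a5 activates bile acids with coenzyme A and Baat joins them to taurine or glycine. Abcb11, the bile salt export pump, moves them across the canalicular membrane into bile, and Slc10a1, the sodium-taurocholate cotransporter, takes them back up from portal blood. The nuclear receptor Nr1h4 (FXR) binds bile acids and induces Abcb11 and Nr0b2 (SHP), and Nr0b2 in turn represses Cyp7a1 and Cyp8b1 by acting on factors such as LRH-1 and HNF4.

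The promoters of 3 of these genes are shown because they hold the letters of sites that this feedback loop is known to use. Sequences are from RefSeq (GRCm38.p6), 250 bases before each annotated start, read 5′ to 3′ on the strand of the gene, with motif matches in capitals. The motifs, searched on both strands, were the inverted repeat of the type bound by FXR with RXR, TCAAGG for the core of the LRH-1 site and CAAAGTCCA for an HNF4 type site. Matches to the letters as searched do not overlap one another here, and looser forms of these sites were not searched. The letters were chosen after these promoters had been seen. Promoter sequences were at hand for 6 members only. Those of Cyp27a1, Slc10a1 and Nr1h4 were searched as well and held no match. Cyp7a1, Cyp7b1, Baat and Slc27a5 had no promoter sequence at hand and were not searched.
Abcb11, chr2:69342617-69342866, minus strand: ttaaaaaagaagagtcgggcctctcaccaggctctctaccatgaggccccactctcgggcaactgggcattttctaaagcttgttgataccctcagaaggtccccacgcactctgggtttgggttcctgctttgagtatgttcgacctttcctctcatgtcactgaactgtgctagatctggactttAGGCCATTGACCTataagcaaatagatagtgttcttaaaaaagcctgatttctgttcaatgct
Nr0b2, chr4:133553126-133553375, plus strand: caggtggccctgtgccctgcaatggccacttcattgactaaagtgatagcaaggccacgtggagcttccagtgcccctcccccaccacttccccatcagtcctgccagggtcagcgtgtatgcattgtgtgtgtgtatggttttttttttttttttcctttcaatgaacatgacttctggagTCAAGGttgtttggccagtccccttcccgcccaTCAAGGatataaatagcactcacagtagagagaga
Cyp8b1, chr9:121916306-121916555, minus strand: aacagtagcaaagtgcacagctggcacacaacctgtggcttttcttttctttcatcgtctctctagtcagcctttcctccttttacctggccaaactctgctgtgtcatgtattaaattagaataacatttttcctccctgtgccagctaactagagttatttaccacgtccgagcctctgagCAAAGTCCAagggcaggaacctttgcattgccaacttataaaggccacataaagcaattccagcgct
In Abcb11 the repeat lies from -63 to -51 relative to the start, and 11 of 32817 annotated promoters (0.0335%) hold it. In Nr0b2 the core lies at -68 to -63 and at -35 to -30, and 4091 promoters (12.5%) hold at least 1 copy. In Cyp8b1 the match lies from -67 to -59, and 126 promoters (0.384%) hold it. These matches are a description of the letters and say nothing of binding in these livers.

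The 10 genes spanned a wide range of levels. At 39 weeks Slc27a5 was highest, with a mean of 785 ± 80.3 FPKM over the 17 mice (SD), followed by Slc10a1 at 375 ± 78.4 and Cyp27a1 at 315 ± 48.0. Abcb11 (143 ± 14.9), Cyp8b1 (125 ± 54.2), Cyp7b1 (123 ± 47.9) and Baat (116 ± 9.70) came next, and neighbours in this order differed by less than the larger SD of the pair, although Abcb11 stood above Baat by more than either gene's SD. Nr1h4 stood at 71.6 ± 8.44, Cyp7a1 at 34.7 ± 14.2 and Nr0b2 at 24.6 ± 14.4, and the last pair lay within 1 SD of each other. The same 3 genes led at 20 weeks, with 511 ± 71.5 FPKM for Slc27a5, 336 ± 71.6 for Slc10a1 and 234 ± 23.3 for Cyp27a1 (8 mice), and Cyp7a1 and Nr0b2 were again lowest.

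The genes also differed in how much they varied from mouse to mouse. The highest 39-week mouse had 8.02 times the Nr0b2 level of the lowest, and the ratio was 5.14 for Cyp7a1, 4.69 for Cyp7b1 and 4.21 for Cyp8b1. It was 1.36 for Baat, 1.48 for Abcb11, 1.56 for Slc27a5 and 1.62 for Cyp27a1. At 20 weeks the ratio was 4.19 for Cyp7a1 and 2.82 for Cyp8b1, but 1.96 for Nr0b2, against 2.21 for Nr1h4 and 1.82 for Abcb11, so the wide spread of Nr0b2 was not seen there. The ratio rests on 8 mice at 20 weeks and 17 at 39 weeks, and it cannot shrink as mice are added. The Nr0b2 locus also ends at 133556536 at 20 weeks but at 133572635 at 39 weeks.

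**Figure D1:**
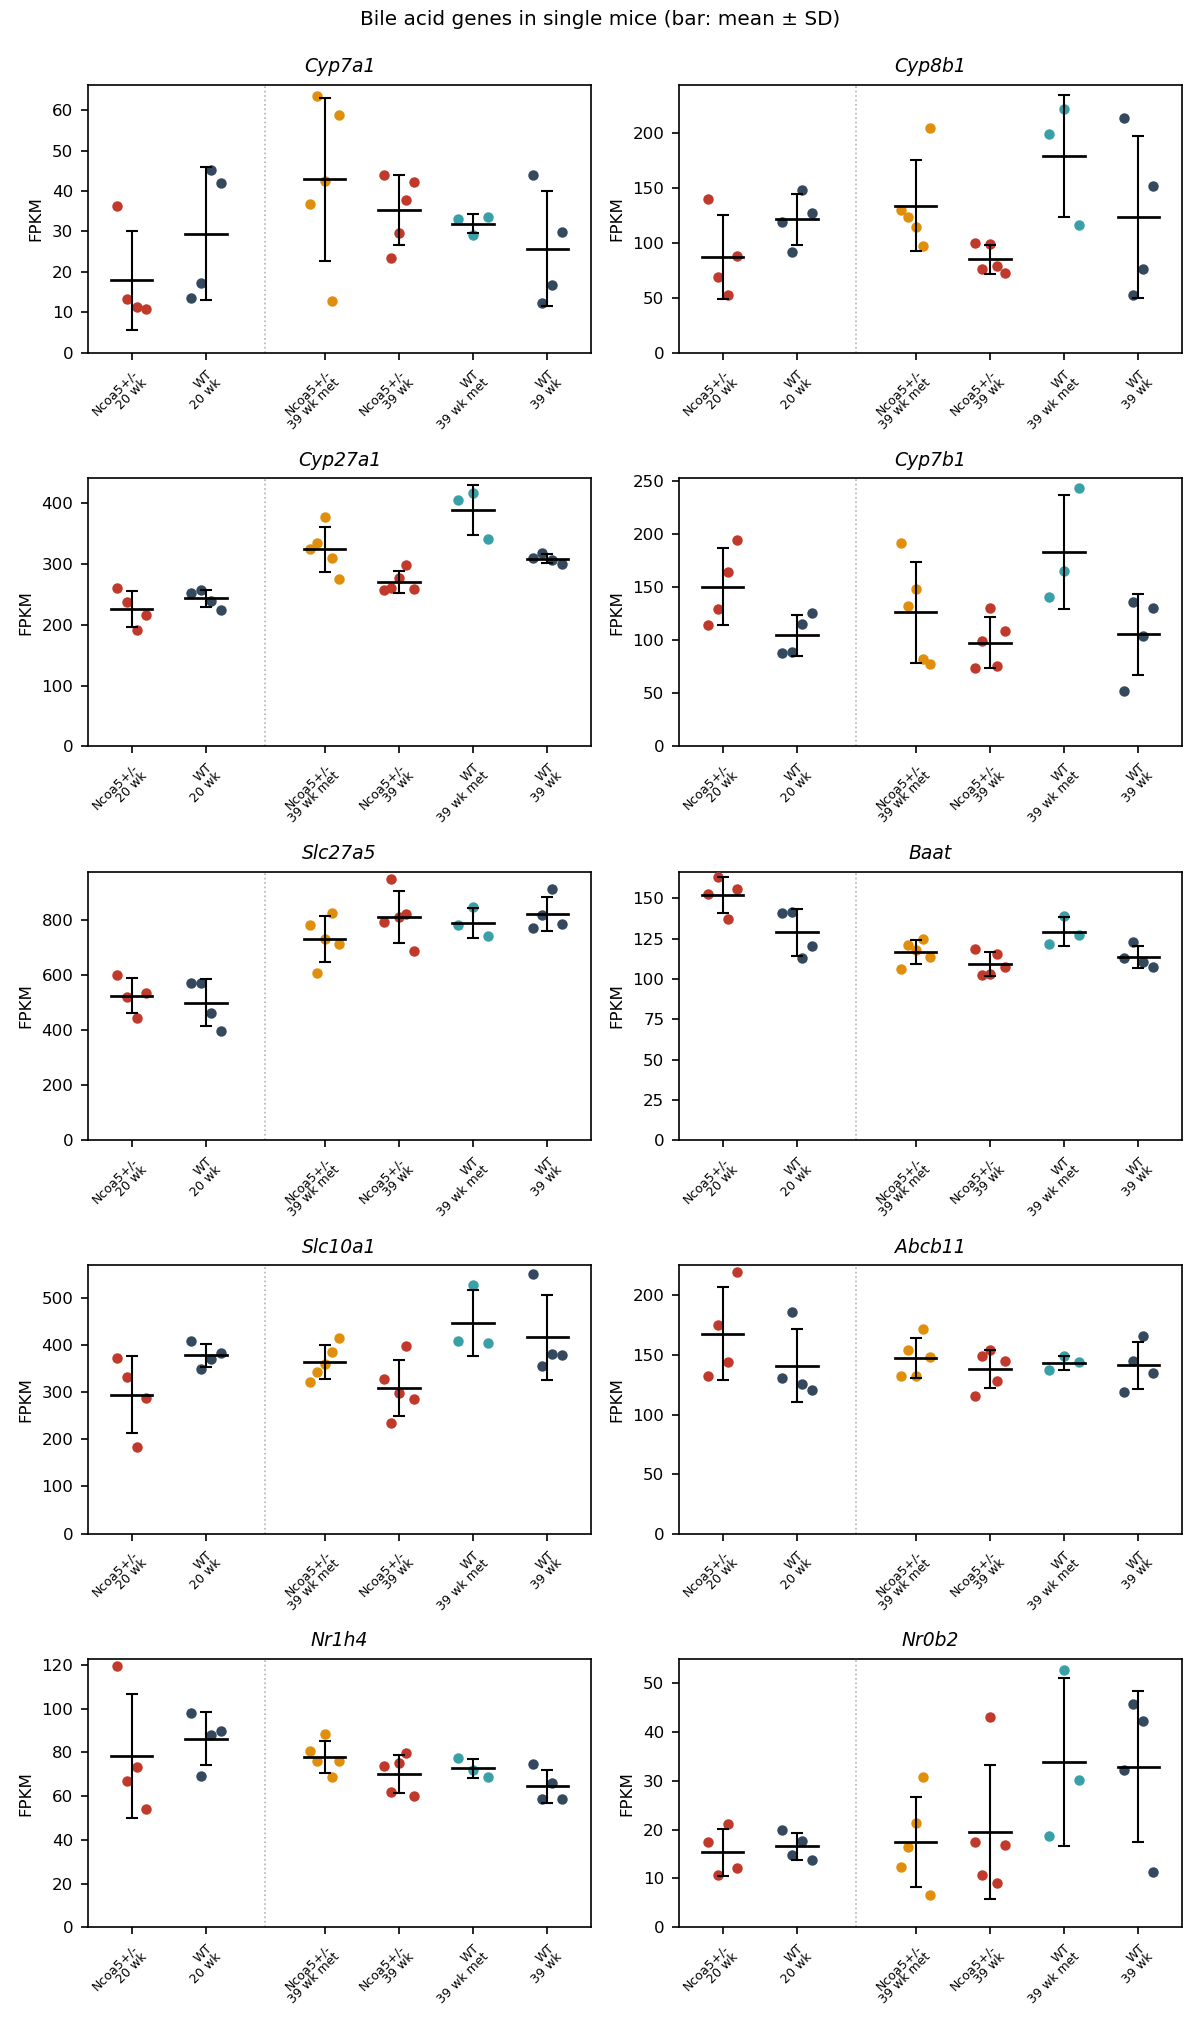
FPKM of the 10 bile acid genes in every mouse, 1 panel per gene, with the 20-week cohort left of the dotted line and the 39-week cohort right of it (met, metformin). Points are mice and bars are means ± SD. Cyp7a1, Cyp7b1, Cyp8b1 and Nr0b2 scatter widely within some groups but not all, with Cyp7a1 at 29.2 to 33.5 FPKM in treated wild type mice. Baat, Slc27a5 and Abcb11 at 39 weeks stay within a ratio of 1.56 from lowest to highest mouse.

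No bile acid gene passed limma (Benjamini-Hochberg adjusted p under 0.05 over all loci) in any of the 9 comparisons, and fold changes below are of log2(FPKM + 1) ± SE. The 39-week comparisons share mice with one another and are not independent. At 20 weeks 0 of the 11 member loci were called, against 0% of the 10963 loci tested. At an unadjusted p under 0.05 the count was 1 member (Cyp7b1), against 7.48% of loci. The genotypes overlapped for every member, while 4.02% of loci had groups without overlap.

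The differences with metformin at 39 weeks were mostly positive in the enzymes of synthesis, and none passed. Averaged over both genotypes, 8 of the 10 genes had a positive difference, with a median of 0.17 on the log2 scale against 0.00 over all loci, of which 48.5% were positive. Markers of periportal hepatocytes and of other liver cells had differences too, none passing. With metformin 6 of 7 periportal hepatocyte markers were lower on average (median -0.21) and 7 of 7 within Ncoa5+/- mice (median -0.35). Of the Kupffer cell and macrophage markers 8 of 8 were higher on average (median 0.19). Their summed levels overlapped, with periportal sums of 2015 to 3529 FPKM in treated and 2782 to 4684 in untreated Ncoa5+/- mice, and 2659 to 3146 in treated and 2512 to 3795 in untreated wild type mice. Kupffer sums were 183 to 256 FPKM in treated and 103 to 277 in untreated Ncoa5+/- mice, and 199.7 to 253 in treated and 155 to 418 in untreated wild type mice. The part of these marker differences in the members' values was not tested. No member passed, against 0.035% of the 11441 loci, and 5 genes reached an unadjusted p under 0.05, against 15.2% of loci. Those 5 were Cyp27a1, Baat, Cyp8b1, Cyp7b1 and Nr1h4, all with higher means in treated mice.

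Cyp27a1, the mitochondrial sterol hydroxylase (chr1:74713574-74737892 on GRCm38.p5), came closest to the threshold. It measured 324, 333, 377, 309 and 275 FPKM in treated Ncoa5+/- mice, against 257, 259.8, 276, 298 and 258 in untreated Ncoa5+/- mice. Wild type mice gave 405, 417 and 340.4 FPKM with metformin, against 309, 318, 306 and 299 without it. Of the 8 treated mice, 6 lay above all 9 untreated mice, and the wild type groups did not overlap. The averaged log2 difference was 0.29 ± 0.063 (limma adjusted p = 0.0718), with 0.26 ± 0.081 within Ncoa5+/- mice (adjusted p = 0.415) and 0.32 ± 0.097 within wild type mice (adjusted p = 0.316). It passed the threshold after quantile normalization (adjusted p = 0.0445) and without wild type metformin replicate 3 (adjusted p = 0.0424). Exact two-sided permutation tests of this single gene gave p = 0.0238 in Ncoa5+/- mice and p = 0.0571 in wild type mice. The latter, from groups that did not overlap, is the smallest p this two-sided test can give for 3 against 4 mice. These are 2 of 60 such tests over the members and are not adjusted.

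Cyp8b1, the enzyme of cholic acid synthesis (chr9:121914356-121916305), showed the larger fold. Treated Ncoa5+/- mice had 129.5, 124, 114, 97.2 and 205 FPKM and untreated Ncoa5+/- mice had 99.7, 75.8, 99.4, 78.8 and 72.8. All 5 treated mice were above the untreated median and 4 of them above every untreated mouse. The means were 134 ± 41.4 and 85.3 ± 13.2 FPKM (SD, n = 5 each), a log2 difference of 0.61 ± 0.31 (limma adjusted p = 0.591, exact permutation p = 0.0238). In the authors' deposited table the same comparison was called, with 148 FPKM with metformin and 90.4 without it, a log2 fold change of 0.71 and a q-value of 0.00668. That table called 173 of the 14159 loci it tested, and no other member. The calls therefore differ between the authors' table and limma on the values of single mice. Some levels differ as well. In treated Ncoa5+/- mice the authors' table gave 110 FPKM for Abcb11 and 30.7 for Cyp7a1, against means of 147.6 and 42.9 over single mice. For Slc27a5 the values were close, at 729 and 730.3. The part of such differences in the calls was not tested. Wild type mice had 199, 222 and 116 FPKM with metformin, against 214, 52.8, 76.4 and 152 without it, and these groups overlapped across their range. Over both genotypes every one of the 8 treated mice exceeded the untreated median of 78.8 FPKM, and the averaged difference was 0.65 ± 0.25 (limma adjusted p = 0.225).

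Cyp7b1, the oxysterol hydroxylase (chr3:18071950-18244019), had a larger difference in wild type livers. These measured 141, 165 and 243 FPKM with metformin, against 51.8, 136, 104 and 130.1 without it, with no overlap and a log2 difference of 0.84 ± 0.35 (limma adjusted p = 0.478), or 0.54 without untreated replicate 1. In Ncoa5+/- mice the values were 191, 132, 148, 82.7 and 77.2 FPKM with metformin, against 73.96, 99.6, 131, 75.8 and 108 without it, and they overlapped. The interaction that tests this contrast was -0.53 ± 0.46 (limma adjusted p = 0.991), or -0.22 without untreated wild type replicate 1 and -0.30 without treated wild type replicate 3, so a difference between the genotypes was not shown. Averaged over genotypes the Cyp7b1 difference was 0.58 ± 0.23 (limma adjusted p = 0.244). Elovl3 and Cyp4a12a, liver genes expressed more in males as Cyp7b1 is, also had higher means with metformin. Elovl3 averaged 87.4 ± 26.9 FPKM in treated and 49.4 ± 19.2 in untreated Ncoa5+/- mice, and 87.0 ± 9.06 in treated and 53.9 ± 4.51 in untreated wild type mice with an averaged log2 difference of 0.75 ± 0.17 (limma adjusted p = 0.0792). It passed without the libraries dominated by few loci (adjusted p = 0.0419) and without untreated Ncoa5+/- replicate 3 (adjusted p = 0.0452). Cyp4a12a gave 0.57 ± 0.17 (adjusted p = 0.14). The part of such a shift in the Cyp7b1 values was not tested.

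The other members had smaller differences with metformin or overlapped widely. Cyp7a1 (chr4:6259928-6275706, joined by the authors with the processed pseudogene Gm11798) had 36.8, 63.4, 42.6, 12.8 and 58.9 FPKM in treated Ncoa5+/- mice, against 43.9, 23.4, 29.8, 37.7 and 42.1 in untreated ones. In wild type mice it had 33.0, 29.2 and 33.5 FPKM with metformin, against 43.8, 12.4, 16.8 and 29.8 without it. The treated values lay inside the range of the untreated ones in wild type mice, while in Ncoa5+/- mice 1 treated value lay below it, 2 above it and 2 inside it. Baat, which conjugates bile acids (chr4:49489422-49506557), averaged 129 ± 8.95 FPKM in treated and 113 ± 6.91 in untreated wild type mice, a log2 difference of 0.19 ± 0.078 (limma adjusted p = 0.477), and its averaged difference was 0.14 ± 0.050 (adjusted p = 0.203). The receptor Nr1h4 (chr10:89454234-89533585) averaged 75.99 ± 6.56 FPKM over the 8 treated mice and 67.7 ± 8.26 over the 9 untreated mice, a difference of 0.16 ± 0.074 (adjusted p = 0.303). Slc10a1 averaged 365 ± 36.2 FPKM in treated and 309 ± 59.9 in untreated Ncoa5+/- mice (SD, n = 5 each), a difference of 0.26 ± 0.14 (limma adjusted p = 0.623), or 0.16 without untreated replicate 2.

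Within single genotypes, 0 members were called for metformin within Ncoa5+/- mice, against 0% of the 11441 loci, and 1 had an unadjusted p under 0.05, against 8.83% of loci. The groups overlapped for all 10 members there, against 1.57% of loci without overlap. Within wild type mice 0 were called, against 0% of loci, and 3 had an unadjusted p under 0.05, against 9.35%. Groups of wild type mice did not overlap for 2 members, Cyp27a1 and Cyp7b1, against 8.33% of all loci. The interaction of genotype and metformin gave 0 members at either threshold by limma, against 0% of loci adjusted and 2.79% unadjusted. No other tool was run.

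**Figure D2:**
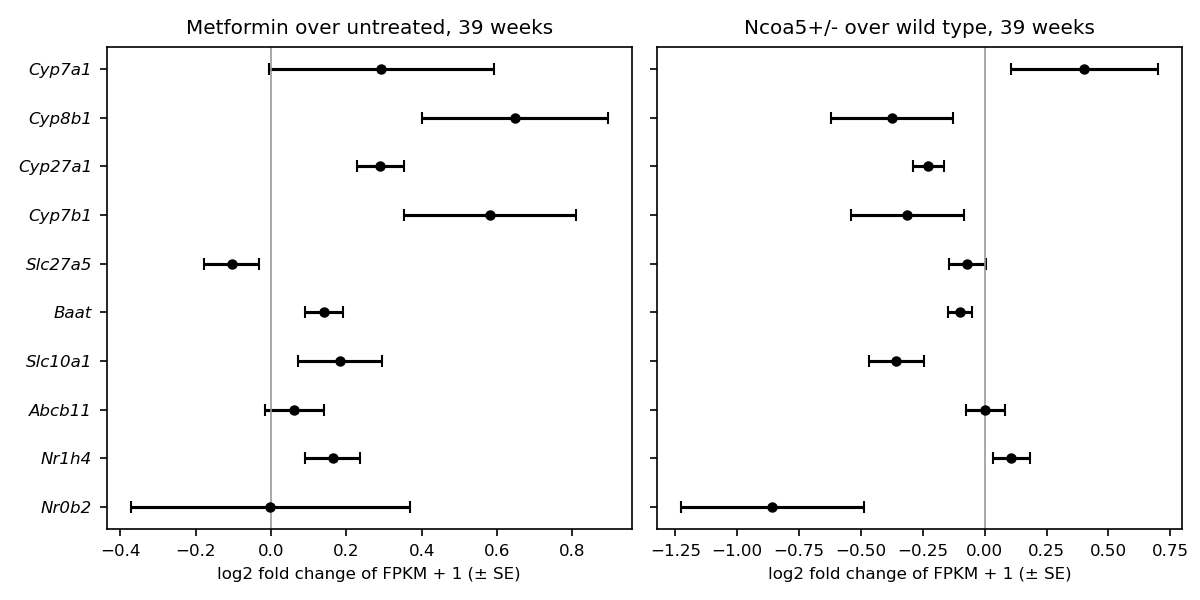
Log2 fold change ± SE (log2 of FPKM + 1, limma) of each gene at 39 weeks, for metformin over untreated mice averaged over genotype (left) and for mice labelled Ncoa5+/- over wild type mice averaged over treatment (right). Cyp27a1 lies at 0.29 on the left and at -0.23 on the right, Slc10a1 at -0.36 on the right, and no gene passed an adjusted p of 0.05.

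Between genotypes at 39 weeks, Slc10a1 and Cyp27a1 had lower means in mice labelled Ncoa5+/-, and the smallest p-values of the members in untreated mice and averaged over treatment. With metformin Baat had a smaller p than Slc10a1, and none passed. Slc10a1 (chr12:80953185-80968887) measured 328, 235, 298, 397 and 285 FPKM in untreated Ncoa5+/- mice, against 550.4, 355, 380.2 and 378 in untreated wild type mice. Of those 5 mice, 4 lay below every untreated wild type mouse, and the log2 difference was -0.43 ± 0.15 (limma adjusted p = 0.641, exact permutation p = 0.0635). With metformin Slc10a1 had 321, 343, 359, 385 and 414 FPKM in Ncoa5+/- mice, against 408, 526.4 and 404 in wild type mice, a difference of -0.29 ± 0.16 (adjusted p = 1), or -0.16 without wild type replicate 2. Averaged over treatment the difference was -0.36 ± 0.11 (limma adjusted p = 0.349). At 20 weeks, in other mice, Slc10a1 measured 373, 333, 183 and 288 FPKM in Ncoa5+/- mice, against 409, 349, 370.2 and 382 in wild type mice, a difference of -0.41 ± 0.22 (limma adjusted p = 0.603). Without Ncoa5+/- replicate 3, the mouse with 183 FPKM, it was -0.19.

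Cyp27a1 averaged 270 ± 17.5 FPKM in untreated Ncoa5+/- mice and 308 ± 7.82 in untreated wild type mice, groups that did not overlap. The log2 difference was -0.19 ± 0.085 (limma adjusted p = 0.857, exact permutation p = 0.0159). With metformin the means were 324 ± 37.3 FPKM in Ncoa5+/- mice and 387 ± 41.1 in wild type mice, a difference of -0.26 ± 0.093 (adjusted p = 0.921), and averaged over treatment it was -0.23 ± 0.063 (limma adjusted p = 0.213). The differences with metformin and with genotype had opposite signs for this gene, and treated Ncoa5+/- mice (324 ± 37.3 FPKM, n = 5) and untreated wild type mice (308 ± 7.82, n = 4) overlapped. The genotypes also stood apart at 39 weeks in the summed level of pericentral hepatocyte markers, although no marker passed limma. In untreated Ncoa5+/- mice 4 of the 6 markers were lower and 2 higher, and averaged over treatment 5 were lower and 1 higher. At 20 weeks the sums overlapped, with 597 to 998 FPKM in Ncoa5+/- mice and 794 to 983 in wild type mice. At 39 weeks the summed level of the 6 pericentral markers used (of 7 listed, none at 0 in all mice) ranged over 599.6 to 793 FPKM in treated and 579.97 to 771 in untreated Ncoa5+/- mice, against 864 to 977 in treated and 841 to 943 in untreated wild type mice. The part of this shift in the Slc10a1 and Cyp27a1 values was not tested. In bulk liver, fewer cells of a type and less RNA per cell cannot be told apart.

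Nr0b2, the repressor SHP (chr4:133553376-133572635, a locus the authors' assembly runs past the annotated gene end at 133556536), also had lower means in mice labelled Ncoa5+/-. It measured 17.5, 10.8, 43.1, 9.13 and 16.95 FPKM in untreated Ncoa5+/- mice, against 32.3, 45.7, 42.2 and 11.2 in untreated wild type mice. With metformin it had 12.4, 16.4, 21.4, 30.8 and 6.56 FPKM in Ncoa5+/- mice, against 18.7, 52.6 and 30.1 in wild type mice. Of the 10 Ncoa5+/- mice, 9 lay below the wild type median, and the groups overlapped. The differences were -0.77 ± 0.50 without metformin (limma adjusted p = 0.913), -0.95 ± 0.54 with it (adjusted p = 1) and -0.86 ± 0.37 averaged (adjusted p = 0.708). Without untreated wild type replicate 4 the first was -1.20, and without treated wild type replicate 2 the difference with metformin was -0.58. At 20 weeks Nr0b2 averaged 15.3 ± 4.80 FPKM in Ncoa5+/- mice and 16.6 ± 2.84 in wild type mice (SD, n = 4 each).

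Cyp7a1 and Cyp8b1 were set side by side in untreated mice at 39 weeks, where neither passed. Cyp7a1 averaged 35.4 ± 8.62 FPKM in Ncoa5+/- mice and 25.7 ± 14.2 in wild type mice, a log2 difference of 0.57 ± 0.40 (limma adjusted p = 0.913), or 0.29 without wild type replicate 2 and 0.87 without replicate 1. Cyp8b1 averaged 85.3 ± 13.2 FPKM in Ncoa5+/- mice and 124 ± 73.4 in wild type mice, a difference of -0.34 ± 0.33 (limma adjusted p = 0.924). It was -0.0070 without wild type replicate 1, which had 214 FPKM, -0.67 without replicate 2 and -0.17 without replicate 4. Within a mouse, the ratio of Cyp8b1 to Cyp7a1 was 1.73 to 3.34 in untreated Ncoa5+/- mice (median 2.27, n = 5) and 4.27 to 5.08 in untreated wild type mice (median 4.70, n = 4), without overlap. With metformin the ratio was 1.95 to 7.58 in Ncoa5+/- mice (median 3.48) and 3.47 to 7.59 in wild type mice (median 6.03), and at 20 weeks it was 3.86 to 8.12 in Ncoa5+/- mice and 3.03 to 8.81 in wild type mice, so the groups overlapped there. The ratio was chosen after its values were seen and was not tested.

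The conjugation and export genes differed little between genotypes. At 39 weeks Slc27a5 averaged 810.1 ± 93.2 FPKM in untreated Ncoa5+/- mice and 821 ± 62.7 in untreated wild type mice, and Abcb11 (chr2:69238200-69342616, overlapping the antisense gene Gm13613) averaged 138 ± 15.9 FPKM in untreated Ncoa5+/- mice and 141 ± 19.8 in untreated wild type mice. Slc27a5 lies at chr7:12988346-12998192. Baat averaged 117 ± 7.16 FPKM in treated Ncoa5+/- mice and 129 ± 8.95 in treated wild type mice, a difference of -0.15 ± 0.074 (limma adjusted p = 1), or -0.093 without wild type replicate 2. Treated Ncoa5+/- mice set against untreated wild type mice gave the highest Nr1h4 difference, with 78.0 ± 7.22 and 64.5 ± 7.46 FPKM and a log2 value of 0.27 ± 0.099 (limma adjusted p = 0.285, exact permutation p = 0.0317). In that comparison Cyp7a1 stood at 0.70 ± 0.40 and Nr0b2 at -0.86 ± 0.50 (limma adjusted p = 0.516 and 0.518). Without 1 mouse Cyp7a1 moved to 0.41 (untreated wild type replicate 2) or 1.07 (treated Ncoa5+/- replicate 4), and Nr0b2 to -1.29 (untreated wild type replicate 4).

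By genotype without metformin at 39 weeks 0 members were called, against 0.262% of loci, and 2 of 10 (20%) had an unadjusted p under 0.05, against 5.62%. Cyp27a1 was the 1 member of 10 without overlap there, against 1.81% of loci. Without untreated wild type replicate 1, the mouse with 550.4 FPKM of Slc10a1, 0 members had an unadjusted p under 0.05. In that fit 886 of 11444 loci did. With metformin 0 were called against 0.157% of loci, with 1 unadjusted against 4.35% and 0 without overlap against 3.72%, and averaged over treatment 0 were called against 0.516%, with 3 of 10 (30%) unadjusted (Cyp27a1, Slc10a1 and Nr0b2) against 6.2%. The members were chosen with earlier results known, so these shares carry no test. For treated Ncoa5+/- against untreated wild type mice 0 were called against 0.262% of loci, with 1 unadjusted (Nr1h4) against 12.1%, and 0 members without overlap against 4.48%.

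At 20 weeks the classic route had lower means in mice labelled Ncoa5+/- and Cyp7b1 a higher one, with none passing. Cyp7a1 measured 36.3, 13.4, 11.5 and 10.8 FPKM in Ncoa5+/- mice, against 13.6, 17.3, 45.2 and 42.0 in wild type mice. In Ncoa5+/- mice 1 mouse stood high and 3 low, and wild type mice split into a low and a high pair, so the groups overlapped. The log2 difference was -0.69 ± 0.48 (limma adjusted p = 0.625), or -1.07 without Ncoa5+/- replicate 1 and -0.43 without wild type replicate 3, and the authors' deposited table gave 14.4 FPKM in Ncoa5+/- mice and 29.3 in wild type mice with a q-value of 0.241, not called. Cyp8b1 had 140.1, 69.0, 52.4 and 87.6 FPKM in Ncoa5+/- mice, against 119, 91.4, 148 and 127 in wild type mice, a difference of -0.55 ± 0.29 (limma adjusted p = 0.603), or -0.34 without Ncoa5+/- replicate 3. Cyp7b1 had 114, 129, 164 and 194 FPKM in Ncoa5+/- mice, against 88.2, 88.6, 115 and 126 in wild type mice, a difference of 0.51 ± 0.20 (limma adjusted p = 0.603). Baat averaged 152 ± 11.2 FPKM in Ncoa5+/- mice and 129 ± 14.6 in wild type mice, a difference of 0.24 ± 0.13 (limma adjusted p = 0.603).

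The serum amyloid gene Saa1 was above the wild type range in 3 of the 4 Ncoa5+/- livers at 20 weeks. Ncoa5+/- replicate 3 had 5697 FPKM of this acute phase gene, which inflammation induces, while the other Ncoa5+/- mice had 56.9, 20.1 and 549 and wild type mice 33.1, 45.04, 44.6 and 24.1. The same mouse had the lowest Slc10a1 (183 FPKM), Cyp8b1 (52.4 FPKM) and Cyp27a1 (191 FPKM) of the 8, and the part of this in those differences was not tested. It also had the highest Slc10a2, the apical sodium-dependent bile acid transporter, with 30.0 FPKM, while the other Ncoa5+/- mice had 9.76, 9.26 and 15.0 and wild type mice 7.55, 8.15, 7.47 and 9.59. The authors' deposited table called Slc10a2 with 14.9 FPKM in Ncoa5+/- mice and 7.85 in wild type mice (q = 0.00413), whereas limma gave a difference of 0.74 ± 0.32 with an adjusted p of 0.603, and 0.40 without Ncoa5+/- replicate 3. For this comparison the authors' table called 294 of the 13975 loci it tested, and none of the members.

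Pairs of genes joined in the feedback loop were compared across mice on the log2 scale, 6 pairs in each cohort. By Pearson's r none of the 12 relations passed after Benjamini-Hochberg adjustment over the 12, the smallest adjusted permutation p being 0.0696. By Spearman's rho 3 passed. Mice of 1 cohort share a sequencing facility and instrument and belong to groups of genotype and treatment, so values centred on group means stand beside these.

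Cyp7a1 and Cyp8b1 varied together. At 20 weeks r was 0.79 (exact permutation p = 0.0258, adjusted 0.0696, n = 8) and rho 0.88 (permutation p = 0.00724, adjusted 0.0429), and centred on group means r was 0.73. At 39 weeks r was 0.50 (permutation p = 0.0385, adjusted 0.077, n = 17) and rho 0.41 (permutation p = 0.105, adjusted 0.209), and the group-centred r was 0.66 (adjusted p = 0.0233). Without the 2 mice farthest from the Cyp7a1 median, r was 0.69 at 20 weeks and 0.33 at 39 weeks (permutation p = 0.122 and 0.238), a step that also narrows the range of Cyp7a1. With any 1 mouse left out r at 39 weeks was 0.35 to 0.58. Cyp8b1 and Slc10a1, a pair outside those compared, gave r = 0.83 at 20 weeks and 0.66 at 39 weeks. Their group-centred r was 0.75 and 0.55, against 0.73 and 0.66 for Cyp7a1 and Cyp8b1. That pair was not tested, and a positive relation was not particular to Cyp7a1 and Cyp8b1.

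Nr0b2, the repressor, ran against Cyp7a1 at 39 weeks, with r = -0.53 (permutation p = 0.029, adjusted 0.0696, n = 17) and rho = -0.50 (permutation p = 0.0449, adjusted 0.108). The group-centred r was -0.46, and r was -0.48 without the 2 mice farthest from the Nr0b2 median (permutation p = 0.0744). At 20 weeks r was 0.11 (exact permutation p = 0.781, adjusted 0.781, n = 8) and rho 0.14 (exact permutation p = 0.752, adjusted 0.82). There r was 0.017 when centred on group means and -0.58 without the 2 farthest mice. Nr0b2 and Cyp8b1 gave r = 0.13 at 20 weeks and r = -0.10 at 39 weeks (rho 0.14 and -0.037, adjusted permutation p of r 0.781 in each). Their group-centred r was -0.0011 at 20 weeks and -0.34 at 39 weeks (adjusted permutation p = 0.235 at 39 weeks). At 39 weeks Cyp7a1 also ran against Slc27a5 (r = -0.70) and Abcb11 (r = -0.50), pairs outside those compared. The group-centred values were -0.70 and -0.62. With the remaining members its r was -0.10 (Baat) to 0.54 (Nr1h4). These values were not tested, and the negative relation was not particular to Nr0b2.

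Nr1h4 and its target Abcb11 ran in opposite directions at 20 weeks, with r = -0.86 (exact permutation p = 0.00642, adjusted 0.0696, n = 8) and rho = -0.76 (exact permutation p = 0.0368, adjusted 0.108). The value was -0.88 without the 2 mice farthest from the Nr1h4 median (exact permutation p = 0.0333), and the group-centred r was -0.85 (adjusted p = 0.0233). At 39 weeks r was -0.32 and rho -0.34 (permutation p = 0.204 and 0.188, adjusted 0.3 and 0.286, n = 17). The group-centred r at 39 weeks was -0.57 (adjusted permutation p = 0.0508). Nr0b2 and Abcb11, both induced by FXR, gave r = -0.60 and rho = -0.38 at 20 weeks and r = 0.31 and rho = 0.33 at 39 weeks (adjusted permutation p of r 0.199 and 0.3). Their group-centred r was -0.57 at 20 weeks and 0.39 at 39 weeks.

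The pair of the alternative route had opposite signs in the cohorts, a contrast that was not tested. Cyp7b1 and Cyp27a1 gave r = -0.80 at 20 weeks (exact permutation p = 0.0164, adjusted 0.0696, n = 8) and rho = -0.86 (exact permutation p = 0.0107, adjusted 0.0429), with a group-centred r of -0.79. At 39 weeks r was 0.53 (permutation p = 0.0276, adjusted 0.0696, n = 17) and rho 0.72 (permutation p = 0.00142, adjusted 0.017), but the group-centred r was 0.14. The relation at 39 weeks did not hold within groups. Without the 2 mice farthest from the Cyp7b1 median r was -0.87 at 20 weeks and 0.64 at 39 weeks (permutation p = 0.0333 and 0.0109).

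**Figure D3:**
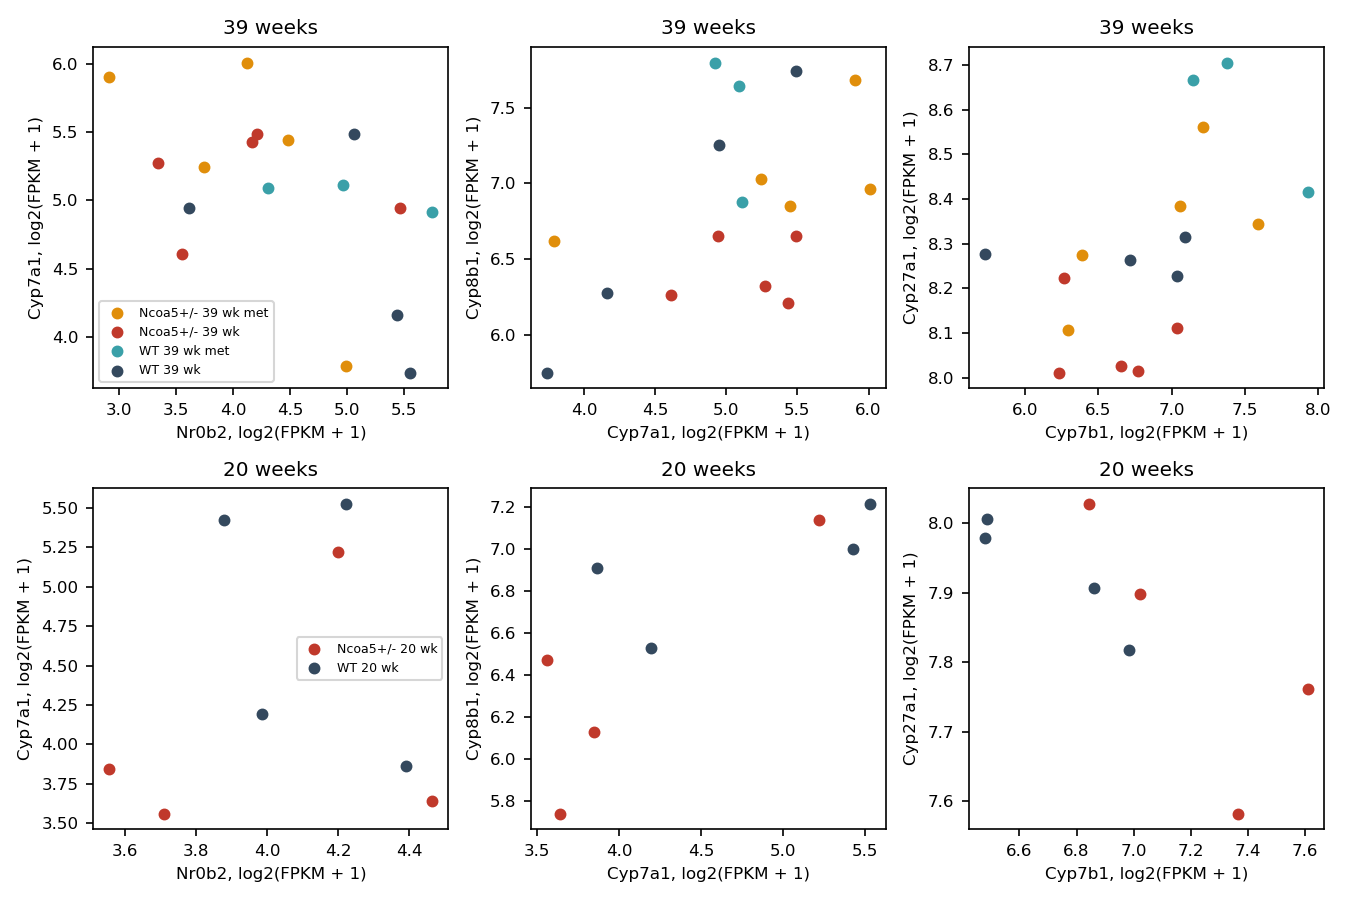
Log2(FPKM + 1) of 3 gene pairs in every mouse, with the 39-week cohort above and the 20-week cohort below (met, metformin), 1 point per mouse and 1 colour per group. Cyp7a1 and Cyp8b1 run together at both ages (r = 0.50 and 0.79), Cyp7a1 and Nr0b2 run in opposite directions at 39 weeks (r = -0.53), and Cyp7b1 against Cyp27a1 changes sign between the cohorts (r = 0.53 and -0.80).

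Over all loci with a regular protein-coding symbol at 39 weeks (8925 ranked), the levels most like those of Cyp7a1 across the 17 mice belonged to Ptrh2 (r = 0.83), Tefm (0.81), Tmem186 (0.80), Clec7a (0.78) and Synpo (0.77). Over the 8 mice at 20 weeks their r with Cyp7a1 was 0.11, 0.79, 0.67, 0.92 and -0.15 in that order. For Nr0b2 they were Tgif1 (r = 0.80), Arl4d (0.79), Cela1 (0.79), Lect2 (0.78) and Gmeb2 (0.78), with 0.48, 0.38, -0.42, -0.47 and 0.30 at 20 weeks. These are the highest of many values and carry no test.

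A wider list of 64 genes of synthesis, transport, control and detoxification was read beside the members, of which 50 were tested at 20 weeks and 54 at 39 weeks. Across it, 3 genes were higher in mice labelled Ncoa5+/- at 39 weeks averaged over treatment and 0 were lower, with a median log2 difference of -0.019 against -0.012 over all loci, of which 0.516% were called. They were Abcc4, Ephx1 and Gstm1. The list was chosen with earlier results of these data known, so its counts beside the shares of all loci carry no test. In untreated mice 2 were higher (Ephx1 and Gstm1), against 0.262% of loci called, in treated Ncoa5+/- against untreated wild type mice 1 was higher (Ephx1), against 0.262%, and in the other 6 comparisons 0 were called in either direction. Cyp3a11, a cytochrome P450 that hydroxylates bile acids and drugs, lay at the threshold in treated Ncoa5+/- against untreated wild type mice, with 0.54 ± 0.11 (limma adjusted p = 0.0505). It passed under 7 of 20 alternatives, with adjusted p from 0.0227 to 0.201 over all of them, and is named after its values were seen.

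Abcc4, a pump that exports bile acids back to blood across the basolateral membrane, was expressed at a low level. It measured 1.91, 3.27, 2.16, 1.54 and 2.35 FPKM in treated and 5.01, 2.09, 2.05, 2.95 and 1.69 in untreated Ncoa5+/- mice, against 1.10, 0.845 and 0.707 in treated and 1.02, 0.874, 0.967 and 0.778 in untreated wild type mice. All 10 Ncoa5+/- mice lay above all 7 wild type mice. The share of all loci split in this way was not taken. By genotype, groups did not overlap in 1.81% of loci without metformin and in 3.72% with it. Abcc4 was named because it passed the genotype test on these same mice, so the split is a description and adds no support. The averaged log2 difference was 0.84 ± 0.15 (limma adjusted p = 0.00889), with 0.92 ± 0.20 without metformin (adjusted p = 0.0891) and 0.77 ± 0.21 with it (adjusted p = 0.504). The untreated value passed at a pseudocount of 0.1 (adjusted p = 0.0363) and without untreated Ncoa5+/- replicate 5 (adjusted p = 0.048). At 20 weeks Abcc4 averaged 0.566 ± 0.319 FPKM in Ncoa5+/- mice and 0.332 ± 0.0852 in wild type mice, under the level tested. Of the 8 canalicular export and bile lipid genes tested at 39 weeks 0 passed, and 8 had a positive difference by genotype averaged over treatment (median 0.11), against 44.0% of loci. With metformin 6 of the 8 were positive, and at 20 weeks 4 of 7 (median 0.010). Other parts of the wider list differed in sign by genotype averaged over treatment. There 1 of 9 synthesis loci was positive (median -0.094), 1 of 5 uptake loci, 6 of 18 sensing and control loci and 2 of 8 side chain loci. In detoxification 4 of 5 were positive and in basolateral export 2 of 2. These signs were not tested.

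Ephx1, the microsomal epoxide hydrolase, which has been described as taking part in bile acid uptake, lies at a locus joined with Gm36961. It measured 907, 1031, 933, 782 and 649 FPKM in treated and 1074, 732, 800.0, 956 and 655 in untreated Ncoa5+/- mice, against 628, 409 and 488 in treated and 502, 434, 506 and 389.5 in untreated wild type mice. Again all 10 mice lay above all 7, in a gene also named for passing the genotype test on these mice. The averaged log2 difference was 0.81 ± 0.12 (limma adjusted p = 0.00281). It was 0.87 ± 0.17 without metformin (adjusted p = 0.0394) and 0.76 ± 0.18 with it (adjusted p = 0.209), and 0.90 ± 0.17 for treated Ncoa5+/- against untreated wild type mice (adjusted p = 0.0287). The untreated call was lost in 8 of the 9 fits that left out 1 mouse, all but that without untreated Ncoa5+/- replicate 5, with adjusted p up to 0.174 and log2 differences of 0.77 to 0.95. It was also lost with no filter (adjusted p = 0.102), with only the compared groups (0.143) and without the libraries dominated by few loci (0.0625). The call against untreated wild type mice was kept in 2 of 9 such fits, those without treated Ncoa5+/- replicate 4 or 5, with adjusted p up to 0.125. It was lost with no filter (0.0819) and with only the compared groups (0.0529) as well. At 20 weeks Ephx1 averaged 362 ± 102 FPKM in Ncoa5+/- mice and 259 ± 17.4 in wild type mice, a difference of 0.44 ± 0.19 (limma adjusted p = 0.603, exact permutation p = 0.0286), or 0.27 without Ncoa5+/- replicate 1. The groups did not overlap, as in 4.02% of all loci at 20 weeks.

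Gstm1, a glutathione transferase of detoxification, averaged 2111 ± 189 FPKM in treated and 2328 ± 298 in untreated Ncoa5+/- mice, and 1437 ± 286 in treated and 1515 ± 115 in untreated wild type mice. The averaged log2 difference was 0.59 ± 0.085 (limma adjusted p = 0.00186), with 0.61 ± 0.12 without metformin (adjusted p = 0.0361) and 0.57 ± 0.13 with it (adjusted p = 0.143), and the value with metformin passed without treated wild type replicate 1 (adjusted p = 0.0456). The Gstm genes are similar in sequence, so reads may be shared among them and the value is uncertain. The untreated call was lost in 8 of the 9 fits without 1 mouse, again all but that without untreated Ncoa5+/- replicate 5, with adjusted p up to 0.158 and log2 differences of 0.56 to 0.66. It was also lost with no filter (adjusted p = 0.123), array weights (0.0694), only the compared groups (0.143) and without the libraries dominated by few loci (0.088).

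**Figure D4:**
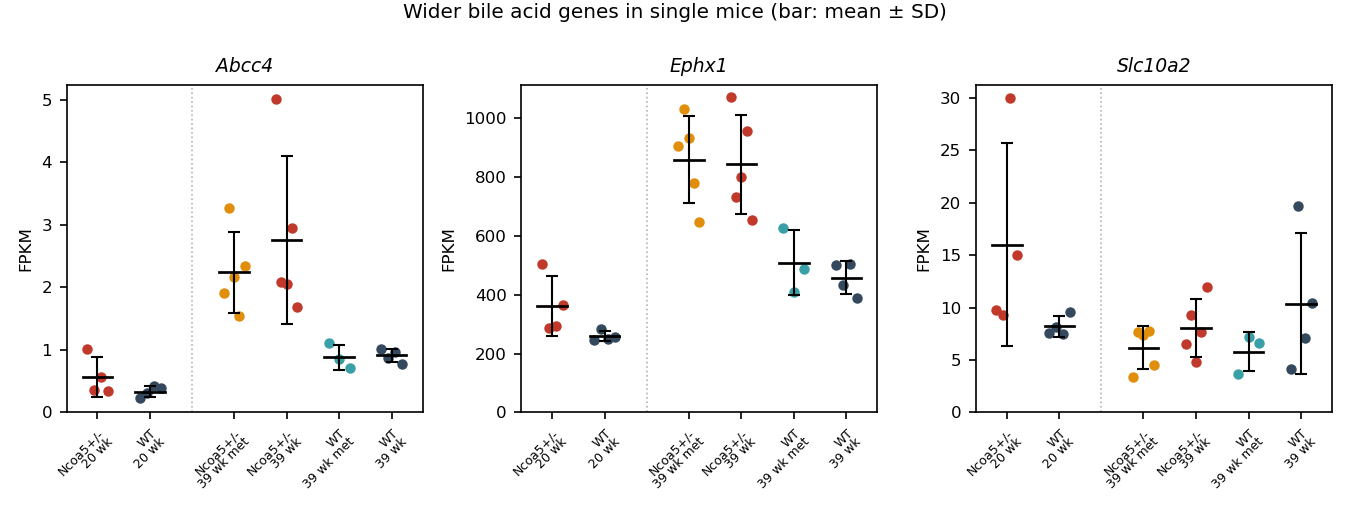
FPKM of Abcc4, Ephx1 and Slc10a2 in every mouse, with the 20-week cohort left of the dotted line (met, metformin), points for mice and bars for means ± SD. At 39 weeks all 10 Ncoa5+/- mice lie above all 7 wild type mice for Abcc4 and Ephx1, and the highest Slc10a2 value at 20 weeks, 30.0 FPKM, belongs to 1 Ncoa5+/- mouse. Abcc4 and Ephx1 were named for passing the genotype test on the same mice.

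Where no gene of the wider list passed, the 3 with the smallest p were as follows. At 20 weeks these were Cyp39a1, an oxysterol hydroxylase (0.45 ± 0.17), Atp8b1, a phospholipid flippase of the canaliculus (0.46 ± 0.18), and the liver transcription factor Foxa2 (-0.72 ± 0.29), each with a limma adjusted p of 0.603. Metformin averaged over genotype gave Cyp3a11 (0.36 ± 0.080, adjusted p = 0.0738), Cyp2b10, a target of the receptor CAR (-0.91 ± 0.22, adjusted p = 0.0886), and the lipid carrier Stard5 (-0.26 ± 0.067, adjusted p = 0.0984). Without treated Ncoa5+/- replicate 4, Cyp3a11 and Cyp2b10 passed (adjusted p = 0.0435 and 0.0224).

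Within Ncoa5+/- mice the 3 for metformin were Cyp3a11 (0.39 ± 0.10, limma adjusted p = 0.387), the phospholipid exporter Abcb4 (0.31 ± 0.10, adjusted p = 0.445) and the uptake carrier Slco1b2 (0.44 ± 0.16, adjusted p = 0.476, or 0.29 without untreated replicate 2). Within wild type mice they were Cyp2b10 (-1.27 ± 0.34, adjusted p = 0.295), the cholesterol hydroxylase Cyp46a1 (-0.70 ± 0.20, adjusted p = 0.295) and Stard5 (-0.34 ± 0.10, adjusted p = 0.327). For genotype under metformin they were Gstm1, Ephx1 and Abcc4, given above. The interaction gave Cyp46a1 (0.73 ± 0.25), the peroxisomal enzyme Hsd17b4 (0.32 ± 0.14) and the corepressor Ncor1 (0.28 ± 0.17), each with a limma adjusted p of 0.991.

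The libraries were checked against their labels. The FPKM sums ranged over 695645 to 1613503 at 20 weeks and 857291 to 2089981 at 39 weeks, and the 50 highest loci took over 70% of the sum in 3 libraries, wild type replicate 4 at 20 weeks, untreated Ncoa5+/- replicate 3 and treated Ncoa5+/- replicate 5. Ddx3y was present and Xist near 0 in every mouse, although no label gives the sex. The hepatocyte gene Alb is listed at 0 in every mouse, while the sum of the hepatocyte markers used at 39 weeks (7 of 10) ranged over 4060 to 5651 FPKM in treated and 4569 to 6645 in untreated Ncoa5+/- mice, against 4850 to 5283 in treated and 4573 to 6616 in untreated wild type mice. Of the ileum genes, Fabp6 was listed at 0 in all but 1 mouse (0.136 FPKM) and Fgf15 at 0 in all 25. The cholangiocyte marker sum at 39 weeks ranged over 47.0 to 71.3 FPKM in treated and 47.6 to 86.8 in untreated Ncoa5+/- mice, against 43.2 to 68.2 in treated and 36.3 to 56.2 in untreated wild type mice (10 markers). The part of these cells in the Abcc4 value was not tested. The clock genes Dbp and Per1 did not pass in any comparison, the smallest adjusted p being 0.490.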

How the data were processed

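RNA-seq of mouse liver was deposited as FPKM per locus, which the authors computed with Cuffnorm, separately for each cohort. Per the submitters' processing notes, Trimmomatic 0.33, TopHat2, Cufflinks and Cuffnorm were used with build GRCm38.p5. The authors' deposited tables of comparisons hold log2 fold changes, p-values and q-values, and those printed are named as theirs. The deposited values are not counts, so absolute depth is unknown and no counting interval is given. Whole reads could not be recovered.

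Values were tested as log2(FPKM + 1) with limma 3.58.1 (R 4.3.3), with a trend, all groups of a cohort in 1 fit, over loci with a cohort mean of at least 1 FPKM and Benjamini-Hochberg adjustment over all of them. Loci listed at 0 in a whole group and expressed elsewhere were taken as failed estimates and left out (15 at 20 weeks and 14 at 39 weeks). Adding 1 understates changes of low genes. Single genes were also tested by exact permutation, and correlations by permutation (40320 pairings at 20 weeks, 100000 resamples at 39 weeks), with Python 3.11.15 and scipy 1.17.1. The fit was tested on simulated data. Alternatives covered the pseudocount, filter, scaling, weights, groups in the fit, failed estimates and each mouse left out.

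Named genes were the 10 members, the wider-list genes that passed or else the 3 with the smallest p, and check genes. The members and lists were chosen with earlier results of these data known. Each sample is 1 mouse; replicates are numbered in accession order.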

Additional observations from a re-analysis of the deposited data

Results flagged for a closer look

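Slc10a1 in untreated wild type replicate 1 at 39 weeks measured 550.4 FPKM, far above the other 3 mice of its group at 355, 380.2 and 378. It was the 1 sample marked as far from the others in 50 groups looked at, where chance marks about 1 in 20 groups.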

How the results depend on the processing

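The count of members called stayed at 0 in 8 of the 9 comparisons under every alternative run. For metformin averaged over genotype it was 1 (Cyp27a1) after quantile normalization, and 0 to 1 when each mouse was left out, with 1 without wild type metformin replicate 3. Of 91 member and comparison pairs, 22 changed sign under some alternative, all with a log2 difference of at most 0.33 in size, and 2 of 1987 alternative values passed. Among the correlations, r of Cyp7a1 and Cyp8b1 at 39 weeks was 0.66 when centred on group means and then passed. For Nr0b2 and Cyp7a1 at 20 weeks r ranged over -0.073 to 0.38 when each mouse was left out. For Nr0b2 and Cyp8b1 it was -0.0011 when centred and -0.16 to 0.80 with a mouse left out at 20 weeks, and 0.097 without the libraries dominated by few loci and -0.31 to 0.070 with a mouse left out at 39 weeks. For Nr1h4 and Abcb11 at 20 weeks r passed at -0.87 after a median shift and at -0.85 when centred, and ranged over -0.94 to -0.75 with a mouse left out. For Cyp7b1 and Cyp27a1 at 20 weeks it passed at -0.84 after a median shift. The cause of these changes was not tested. Counts over all loci moved as well: metformin averaged over genotype called 4 loci, against 41 after quantile normalization, 20 with array weights, 24 with failed estimates kept at 0, 21 at a filter of 5 FPKM, 7 with no filter, 18 without the dominated libraries and 0 to 69 with a mouse left out. Genotype with metformin called 18 loci, against 6 with only the groups compared, 31 with failed estimates kept, 10 at a pseudocount of 5 and 4 to 19 with a mouse left out (4 without wild type metformin replicate 2). Genotype without metformin called 30, against 11 with only the groups compared and 18 to 27 with a mouse left out. Treated Ncoa5+/- against untreated wild type mice called 30, against 45 with array weights and 14 to 76 with a mouse left out (76 without treated Ncoa5+/- replicate 4). No paired analysis was possible because replicate numbers follow accession order and pair no mice.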
